A study of Mus musculus with 14 samples.

Results

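A set of 10 epithelial genes was followed across 14 mouse thymic lymphomas of 3 Hif1a genotypes: the desmosome genes Dsc2, Dsg2, Pkp1 and Perp, the basement membrane gene Lamb3, the regulators Esrp1, Ehf and Trim29, and the surface protein genes Fxyd3 and Spint1. They are 10 of the 10254 genes measured, taken as every probe set of the array that maps to 1 of these symbols and to no other gene. The names were chosen with earlier results from these arrays in view, so their levels and genotype differences are given as a description. The tumours came from mice homozygous for the p53 R270H mutation on a mixed C57BL/6-129/SvEvTac background, aged until respiratory distress. There were 5 tumours with the Hif1a+/- genotype, 4 with Hif1aKI/+ and 5 with Hif1a+/+ (HIF1a in the labels), and every group, Hif1a+/+ included, carried p53 R270H on both alleles. What the knock-in (KI) allele carries, where the Hif1a alleles act, and the age at sacrifice and sex of the mice are not given in the labels. Total RNA of whole tumour tissue was measured on 1 Affymetrix array per tumour, and values are log2 probe set summaries.

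Desmosomes are spot-like junctions in which desmogleins and desmocollins of neighbouring cells bind each other outside the cell, while plakophilins and other plaque proteins tie them to the keratin filaments inside. Below the basal cells of stratified epithelia, laminin chains anchor the sheet to the basement membrane. In the thymus these genes belong to the epithelial network that supports developing T cells, whereas the lymphoma cells themselves belong to the T lineage.

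The signal of T-lineage cells was present in every tumour, with the mean of 12 measured T cell markers between 11.69 and 12.56. Hif1a ran from 12.24 to 12.82 in Hif1a+/- tumours, from 11.75 to 12.25 in Hif1aKI/+ tumours and from 12.44 to 13.04 in Hif1a+/+ tumours at its probe set of highest mean. The position of that probe set relative to the altered sequence is not known here, so it is no check of the dose of intact transcript. Array medians lay between 7.91 and 8.03, and correlations between arrays ran from 0.942 to 0.976. The values have a low mode of probe sets without signal above background, whose upper bound was set at 4.41, the minimum of the density of all values. A difference from a level below it is measured against background, and its size is uncertain.

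Promoter sequence from RefSeq (GRCm38.p6) is shown for 3 of the 10 genes, Lamb3, Spint1 and Fxyd3. Any windows of the 10 genes on a further chromosome were left out, so sequence may exist for others of the 10. Each window runs from 250 bases before to 50 bases after a transcription start. Capitals mark matches, on either strand, to AGGAAG (a core bound by ETS factors such as Ehf), AACCGG (a core bound by grainyhead-like factors), TGANTCA (bound by AP-1), TATAAA (the TATA box) or the half-site of the p53 family, given by its name.
Lamb3 (chr1:193301744-193302043, plus strand): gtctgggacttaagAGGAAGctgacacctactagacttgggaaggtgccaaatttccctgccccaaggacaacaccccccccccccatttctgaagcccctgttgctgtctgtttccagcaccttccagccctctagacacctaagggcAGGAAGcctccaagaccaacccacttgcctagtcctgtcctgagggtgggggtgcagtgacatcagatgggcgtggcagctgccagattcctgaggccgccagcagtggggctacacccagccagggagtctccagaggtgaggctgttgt
Spint1 (chr2:119237110-119237409, plus strand): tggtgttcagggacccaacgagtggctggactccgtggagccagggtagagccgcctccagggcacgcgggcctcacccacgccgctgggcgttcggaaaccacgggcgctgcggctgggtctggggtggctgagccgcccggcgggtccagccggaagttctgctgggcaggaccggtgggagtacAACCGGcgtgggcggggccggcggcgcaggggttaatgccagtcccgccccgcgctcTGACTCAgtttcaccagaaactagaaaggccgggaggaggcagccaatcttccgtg
Fxyd3 (chr7:31076648-31076947, minus strand): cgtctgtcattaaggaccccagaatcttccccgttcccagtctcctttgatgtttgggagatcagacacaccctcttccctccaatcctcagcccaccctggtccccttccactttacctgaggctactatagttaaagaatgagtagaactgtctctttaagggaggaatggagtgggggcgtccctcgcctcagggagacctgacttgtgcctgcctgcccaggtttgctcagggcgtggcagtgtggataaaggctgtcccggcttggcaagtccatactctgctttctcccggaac
The Lamb3 window held AGGAAG at 2 positions, 236 and 101 bases before the start, a motif found in 35.4% of the 32851 promoter windows of the same length. The Spint1 window held AACCGG at 63 bases and TGACTCA at 6 bases before the start, where 6.83% of all windows hold AACCGG and 7.81% hold the AP-1 motif. The Fxyd3 window held none of the 5 motifs, and neither did a second Lamb3 window. The TATA box was found in 13.6% and the p53-family half-site in 8.36% of all windows, and in none of the Lamb3, Spint1 and Fxyd3 windows.

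The desmosomal cadherin genes were detected in most tumours and varied widely within each genotype. Dsg2, which encodes the desmoglein of simple epithelia, had 4.34, 9.53, 10.37, 8.39 and 6.48 in Hif1a+/- tumours 1 to 5. It had 9.80, 9.65, 8.84 and 8.16 in Hif1aKI/+ tumours 1, 3, 4 and 5, against 8.76, 7.83, 7.84, 7.01 and 3.89 in Hif1a+/+ tumours 1 to 5. In RNA of whole tissue, fewer epithelial cells and less RNA per cell cannot be told apart. The 3 groups overlapped, and the tumours not above background were Hif1a+/- tumour 1 and Hif1a+/+ tumour 5. Dsg2 averaged 7.82 ± 2.43 in Hif1a+/- (SD, n = 5), 9.11 ± 0.76 in Hif1aKI/+ (SD, n = 4) and 7.06 ± 1.88 in Hif1a+/+ tumours (SD, n = 5). Of its other 3 probe sets, a pair followed the same order of tumours closely and 1 stayed between 2.05 and 2.08 in all 14, which is background.

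Dsc2, the partner desmocollin, had 3.58, 6.24, 7.22, 5.35 and 5.28 in Hif1a+/- tumours 1 to 5. It had 7.61, 7.50, 4.98 and 5.34 in Hif1aKI/+ tumours 1, 3, 4 and 5, against 6.39, 6.38, 3.59, 2.12 and 2.13 in Hif1a+/+ tumours 1 to 5. The groups overlapped, since Hif1a+/+ tumours 1 and 2 lay among the higher tumours and Hif1a+/+ tumours 4 and 5 were at background. Its second probe set stayed between 2.05 and 2.07 in every tumour.

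Pkp1, the plakophilin of the desmosomal plaque in stratified epithelia, was close to background throughout. It had 1.94, 3.36, 4.70, 2.85 and 3.26 in Hif1a+/- tumours and 4.01, 3.31, 2.40 and 3.27 in Hif1aKI/+ tumours, against 2.86, 2.14, 1.94, 1.94 and 1.94 in Hif1a+/+ tumours, in the order of their numbers. Hif1a+/- tumour 3 was the only 1 of the 14 tumours above 4.41.

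Perp, a tetraspan membrane protein of desmosomes and a target gene of p53 and p63, was above background in 13 of 14 tumours. It had 7.27, 9.81, 9.88, 9.45 and 10.33 in Hif1a+/- tumours 1 to 5. It had 9.98, 10.25, 7.66 and 8.94 in Hif1aKI/+ tumours 1, 3, 4 and 5, against 9.94, 7.85, 4.36, 6.52 and 9.39 in Hif1a+/+ tumours 1 to 5. The groups overlapped, and Hif1a+/+ tumour 3 lay just below the background bound.

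Lamb3, the beta chain of the laminin that anchors basal epithelial cells, had the largest mean difference among the 10 genes in both comparisons with Hif1a+/+. It had 5.08, 5.89, 6.12, 4.82 and 7.18 in Hif1a+/- tumours 1 to 5. It had 6.02, 5.39, 5.10 and 6.35 in Hif1aKI/+ tumours 1, 3, 4 and 5, against 4.87, 2.05, 2.06, 2.08 and 4.60 in Hif1a+/+ tumours 1 to 5. All 4 Hif1aKI/+ tumours lay above the highest Hif1a+/+ tumour, and 4 of 5 Hif1a+/- tumours did. In Hif1a+/+ tumours 2, 3 and 4 the gene was at background.

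**Figure D1:**
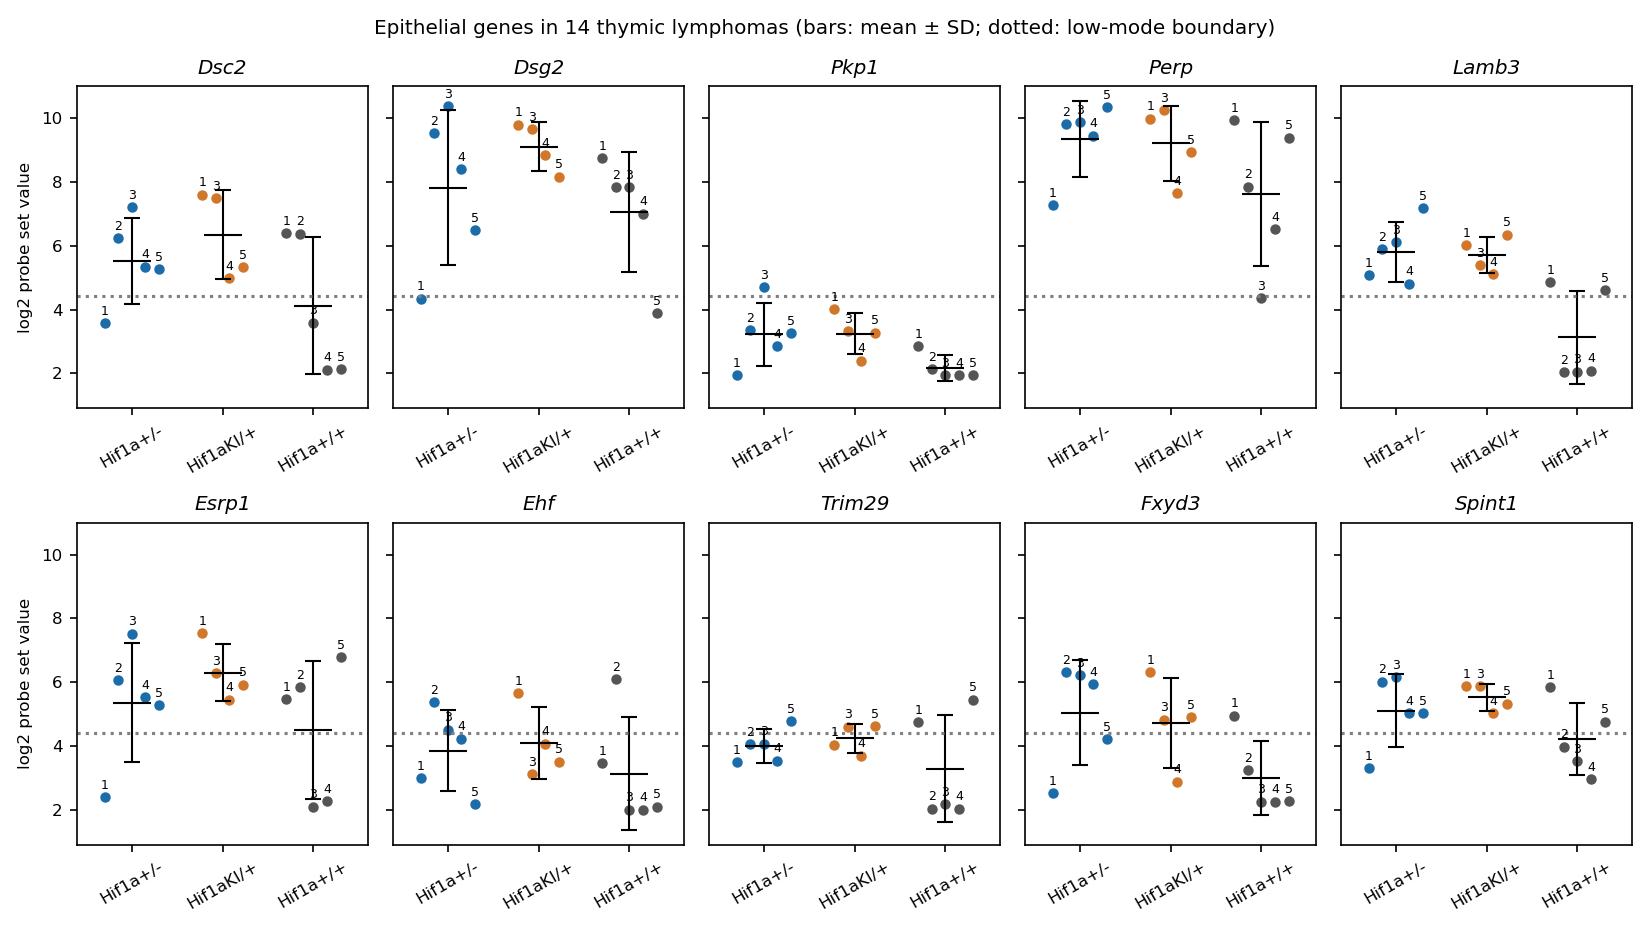
Log2 probe set values (y axis) of the 10 genes in each tumour, by genotype (x axis). Points are tumours with their label numbers, black bars the group mean ± SD, and the dotted line the background bound of 4.41. The 4 Hif1aKI/+ points for Lamb3 lie above all 5 Hif1a+/+ points, and in the other 9 panels the groups overlap.

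Among the regulators, Esrp1, which directs the splicing pattern of epithelial cells, was above background in 11 tumours. It had 2.40, 6.07, 7.53, 5.53 and 5.28 in Hif1a+/- tumours 1 to 5. It had 7.55, 6.29, 5.45 and 5.92 in Hif1aKI/+ tumours 1, 3, 4 and 5, against 5.47, 5.84, 2.11, 2.28 and 6.80 in Hif1a+/+ tumours 1 to 5. Background levels thus occurred in Hif1a+/- tumour 1 and in Hif1a+/+ tumours 3 and 4, while Hif1a+/+ tumour 5 had the third highest level of all.

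Ehf, an ETS transcription factor of epithelial cells, was above background in 4 tumours. It had 3.00, 5.38, 4.51, 4.23 and 2.18 in Hif1a+/- tumours and 5.67, 3.11, 4.08 and 3.51 in Hif1aKI/+ tumours, against 3.47, 6.10, 2.01, 2.01 and 2.10 in Hif1a+/+ tumours, in the order of their numbers. The highest and the lowest values were both in Hif1a+/+ tumours. Its other 2 probe sets lay between 2.12 and 2.24 in every tumour.

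Trim29, a tripartite motif protein of basal epithelial cells that binds p53, was above background in 5 tumours. It had 3.49, 4.07, 4.08, 3.54 and 4.79 in Hif1a+/- tumours and 4.04, 4.61, 3.70 and 4.63 in Hif1aKI/+ tumours, against 4.75, 2.03, 2.18, 2.04 and 5.46 in Hif1a+/+ tumours, in the order of their numbers. The Hif1a+/+ tumours held both extremes, with tumour 5 the highest and tumour 2 the lowest of the 14.

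Of the surface protein genes, Fxyd3, a small regulator of the sodium pump, was above background in 7 tumours. It had 2.52, 6.31, 6.23, 5.94 and 4.22 in Hif1a+/- tumours and 6.32, 4.83, 2.89 and 4.91 in Hif1aKI/+ tumours, against 4.95, 3.25, 2.25, 2.26 and 2.28 in Hif1a+/+ tumours, in the order of their numbers. In Hif1a+/+ the gene was above background in tumour 1 alone.

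Spint1, an inhibitor of the epithelial surface proteases that include matriptase, was above background in 10 tumours. It had 3.31, 6.02, 6.16, 5.03 and 5.02 in Hif1a+/- tumours and 5.88, 5.88, 5.03 and 5.33 in Hif1aKI/+ tumours, against 5.85, 3.99, 3.54, 2.97 and 4.77 in Hif1a+/+ tumours, in the order of their numbers. The Hif1aKI/+ tumours were close together, and 4 of 5 Hif1a+/+ tumours lay below all of them.

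Setting Hif1a+/- beside Hif1a+/+ tumours addresses the effect of 1 lost Hif1a allele. All 10 genes had a higher mean in Hif1a+/- tumours, and by at least 1 on the log2 scale in 5, Lamb3 (2.68, SE 0.67), Fxyd3 (2.04, SE 0.87), Perp (1.74, SE 1.02), Dsc2 (1.41, SE 1.04) and Pkp1 (1.06, SE 0.45). Of all 10254 genes 46.2% had a higher mean and 4.13% were higher by at least 1. The median difference was 0.97 over the 10 genes and -0.0038 over all genes. In limma's fit across all genes, with Benjamini-Hochberg adjustment, 0 of the 10 genes passed an adjusted p of 0.05, beside 2 of all genes (0.0195%), and the lowest adjusted p was 0.408, for Lamb3. At an unadjusted p under 0.05 stood 3 of the 10, Lamb3, Fxyd3 and Pkp1, all higher, where 4.30% of all genes were higher and 3.64% lower at that level. The groups overlapped for each of the 10, while 0.731% of all genes were higher and 0.741% lower without overlap. Since the names were chosen with this contrast in view, nothing is read from these counts. The Dsg2 difference depended on single tumours, at 0.76 with all tumours, -0.04 without Hif1a+/+ tumour 5 and 1.63 without Hif1a+/- tumour 1. Of the 5 differences of at least 1, Perp was 0.92 without Hif1a+/+ tumour 3, Dsc2 was 0.91 without Hif1a+/+ tumour 4 or 5 and 0.99 without Hif1a+/- tumour 3, and Pkp1 was 0.69 without Hif1a+/- tumour 3. The Esrp1 difference was 0.86 and it was 0.26 without Hif1a+/+ tumour 3 and 1.60 without Hif1a+/- tumour 1.

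Setting Hif1aKI/+ beside Hif1a+/+ tumours addresses the effect of 1 knock-in allele, with the same Hif1a+/+ tumours as before. Again all 10 means were higher, 8 of them by at least 1, where 47.7% of all genes were higher and 4.58% by at least 1. Lamb3 was 2.58 higher (SE 0.71), Dsc2 2.23 (SE 1.10), Dsg2 2.05 (SE 1.23), Esrp1 1.80 (SE 1.16), Fxyd3 1.74 (SE 0.92), Perp 1.59 (SE 1.08), Spint1 1.31 (SE 0.64) and Pkp1 1.08 (SE 0.48). The median was 1.67, against -0.0024 over all genes. In limma's fit 0 of the 10 genes passed, beside 0 of all genes (0%), and the lowest adjusted p was 0.984. At an unadjusted p under 0.05 stood 2 of the 10, Lamb3 and Pkp1, both higher, where 2.72% of all genes were higher and 1.63% lower at that level. Lamb3 was the 1 gene of the 10 without overlap, a state that 0.878% of all genes reached in this direction. The Dsg2 difference was 1.25 without Hif1a+/+ tumour 5, and Esrp1 ran from 1.20 without Hif1a+/+ tumour 3 to 2.38 without tumour 5. Perp was 0.78 without Hif1a+/+ tumour 3, Spint1 0.99 without Hif1a+/+ tumour 4 and Pkp1 0.83 without Hif1aKI/+ tumour 1.

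Between Hif1a+/- and Hif1aKI/+ tumours the differences were mostly smaller than their errors. The Dsg2 difference was -1.29 (SE 1.23), and 3 of the 10 means were higher in Hif1a+/- than in Hif1aKI/+, where 46.9% of all genes were. The other 9 differences ran from -0.94 for Esrp1 to 0.31 for Fxyd3, each smaller than its SE. In limma's fit 0 of the 10 genes passed, beside 0 of all genes (0%), and 0 reached an unadjusted p under 0.05, where 1.41% of all genes were higher and 1.65% lower at that level. The groups overlapped for each of the 10, while 0.234% of all genes were higher and 0.439% lower without overlap. The signs of 6 of these differences, those of Lamb3, Fxyd3, Perp, Spint1, Pkp1 and Ehf, turned on leaving out 1 tumour.

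**Figure D2:**
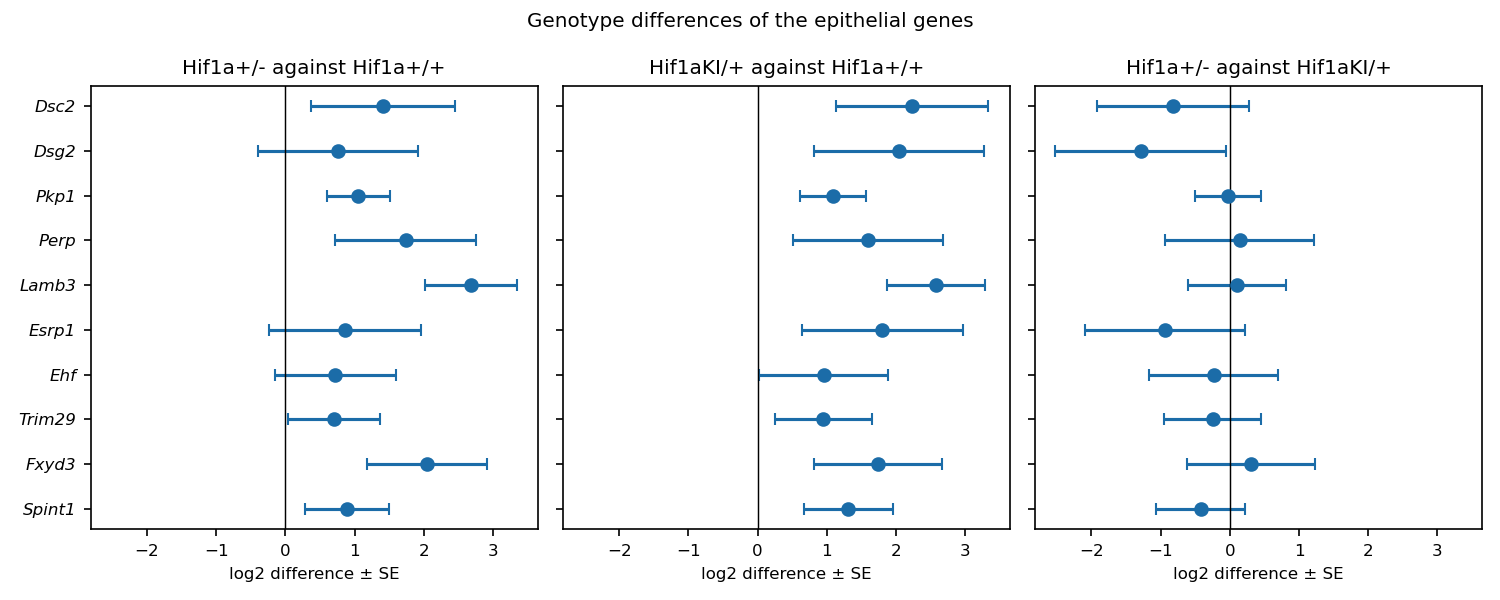
Log2 difference (x axis) of each of the 10 genes (y axis) in the 3 genotype comparisons, first-named minus second-named genotype. Points are limma estimates and bars their SE. Lamb3, at 2.68 and 2.58, lies farthest from 0 in both comparisons with Hif1a+/+, and the estimates between Hif1a+/- and Hif1aKI/+ lie from -1.29 to 0.31.

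The 10 genes did not all rise and fall in the same tumours. Over the 14 tumours the Pearson correlations of their 45 pairs had a median of 0.68 and ran from -0.12 to 0.88. As deviations from the genotype means the median was 0.57. Fxyd3 and Pkp1 were the closest pair at 0.88, followed by Esrp1 with Spint1 at 0.85. Trim29 went with Lamb3 (0.81) and Perp (0.78) but not with Dsg2 (-0.05) or Ehf (-0.12). Dsg2 went with Dsc2 (0.80) and Fxyd3 (0.72) more than with Lamb3 (0.20) or Perp (0.29). Ehf was nearest to Dsc2 (0.71) and had 0.13 with Lamb3. Arrays are the only points here, the genes were picked with their levels known, and several values sit at background, so these correlations carry no test.

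**Figure D3:**
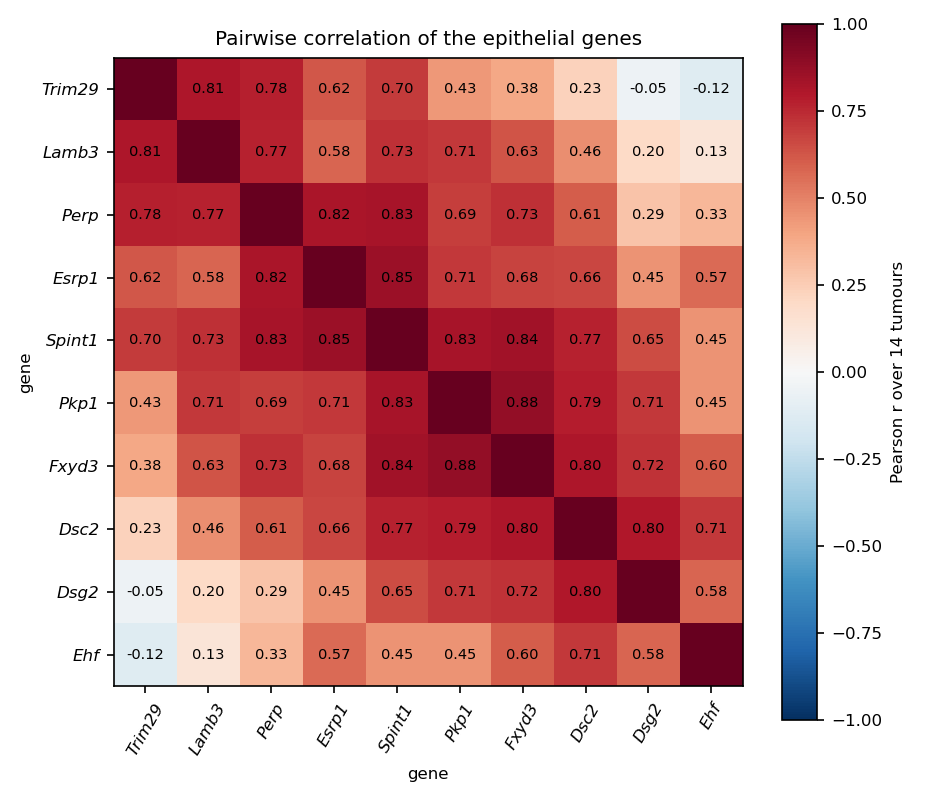
Pearson correlation (colour and printed value) over 14 tumours for each pair of the 10 genes, which label both axes. Trim29, Lamb3 and Perp correlate at 0.77 to 0.81 with each other, Dsc2 and Dsg2 at 0.80, and the values between Trim29 and Dsg2 or Ehf are -0.05 and -0.12.

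Single tumours showed how the genes came apart. Hif1a+/+ tumours 3 and 4 had background levels of nearly all of them, with Dsg2 the 1 gene above 4.41 in tumour 3 and Dsg2 and Perp the 2 above it in tumour 4. In those tumours the keratin genes Krt8 (3.09 and 2.04), Krt18 (3.21 and 3.56) and Krt5 (3.84 and 4.37) and the basal epithelial factor gene Trp63 (2.04 and 2.24) were also at background. Other epithelial genes were above it there, among them Krt10 (6.80 and 6.01), Krt17 (6.12 and 6.16) and the cadherin gene Cdh1 (6.01 and 5.50). The desmoplakin gene Dsp was at 12.86 and 11.08, and Epcam at 2.32 and 6.75. Dsg2, at 7.84 and 7.01, was well above background in 2 tumours in which Krt8, Krt18, Krt5 and Trp63 were not, whereas it was at 4.34 in Hif1a+/- tumour 1, where Krt18 was 7.55 and Krt5 6.65.

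Hif1a+/+ tumour 5 had 5 of the 10 genes above background and 5 not. Trim29, at 5.46, was the highest of all 14 tumours there and Esrp1, at 6.80, the third highest, with Perp at 9.39, Spint1 at 4.77 and Lamb3 at 4.60. In the same tumour Dsg2 (3.89), Dsc2 (2.13), Fxyd3 (2.28), Pkp1 (1.94) and Ehf (2.10) were at background, as were Krt18 (3.45) and Trp63 (2.23), and the desmoplakin gene Dsp had its lowest value of the 14 (4.62). Krt8 (6.62) and Krt5 (5.58) were above background there. The surface adhesion gene Epcam, at 9.02, and the airway club cell gene Scgb1a1, at 11.13, had their highest values of the 14 in this tumour. Of the 9 measured lung and airway markers the mean there was 3.87, against 2.23 to 3.47 in the other 13 tumours, and Sftpc, the surfactant gene that defines alveolar type II cells, was at 4.17, below the background bound but above the 2.01 to 2.02 of the other 13 tumours. Scgb3a2, another airway secretory gene, was at 3.28 there and at most 2.04 elsewhere. Not all markers of the list were highest in this tumour. Bpifa1 was at 2.21, against up to 9.49 elsewhere, and Ager at 3.27, against up to 5.23. Scgb3a1 was at 4.51, against 6.51 in Hif1a+/+ tumour 3. Scgb1a1 also reached 7.29 in Hif1a+/- tumour 3 and 7.50 in Hif1aKI/+ tumour 1. The part of airway tissue in the levels of Trim29, Esrp1 and Perp was not tested.

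Hif1a+/+ tumour 2 had the highest Ehf of all tumours, at 6.10, beside the lowest Trim29 (2.03) and Lamb3 (2.05). It kept a keratin signal, with Krt8 at 9.94 and Krt18 at 8.98. The mesothelial genes Upk3b and Wt1 were at 9.47 and 7.58 in this tumour, against at most 6.28 and 5.39 in the other 13, and the mean of the 5 measured mesothelial markers was 5.76, against 2.06 to 3.34. Of the rest of that list, Krt19 was at 5.02 in this tumour, while Krt7 (3.68) and Msln (3.03) lay below the background bound. The part of mesothelium in the Ehf level was not tested.

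Hif1a+/- tumour 1 had the lowest level of 8 of the 10 genes within its genotype, and 2 of the 10, Lamb3 and Perp, above background. Hif1a+/- tumour 5 had the highest Lamb3 (7.18) and Perp (10.33) of the 14 tumours and the second highest Trim29 (4.79), while Dsg2 (6.48), Ehf (2.18) and Esrp1 (5.28) ranked 12, 11 and 11 of 14. Hif1a+/- tumour 3 and Hif1aKI/+ tumour 1 had the highest averages over the 10 genes, and they held the 2 highest levels of Dsg2, Esrp1 and Pkp1.

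**Figure D4:**
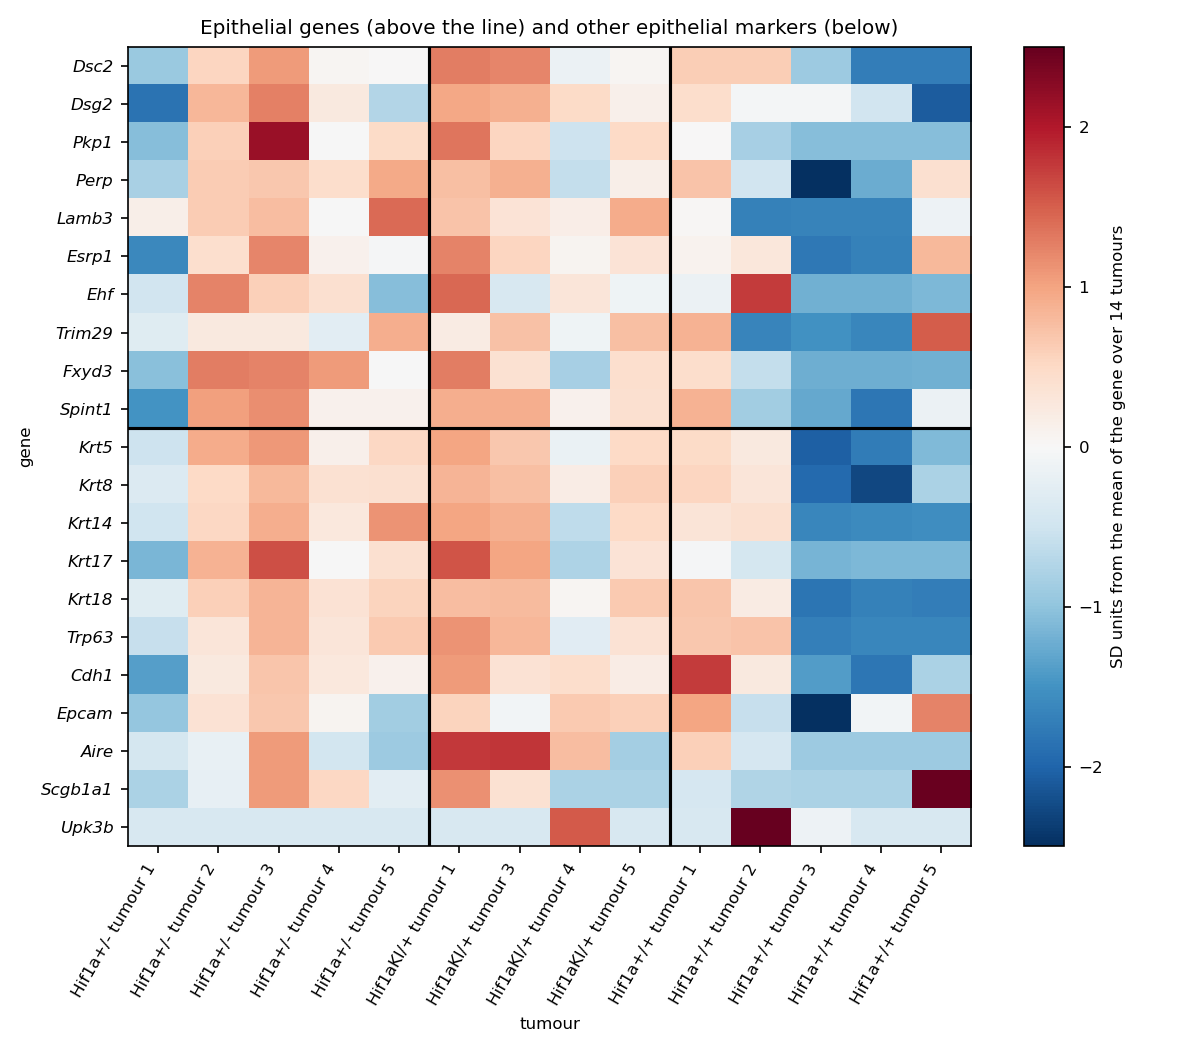
Level of each gene (rows) in each tumour (columns) as SD units from the gene's mean over the 14 tumours, red above and blue below, with colours ending at ±2.5. The 10 genes stand above the line and keratins, Trp63, Cdh1, Epcam, Aire, Scgb1a1 and Upk3b below. Hif1a+/+ tumours 3 and 4 are blue for nearly all rows, while tumour 5 is red for Trim29, Esrp1, Epcam and Scgb1a1 and blue for the keratins and Trp63.

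Outside the set, the genes whose levels most resembled the average profile of the 10 included 4 keratin genes. Each gene was scaled to its SD, the 10 were averaged, and the genes with a mean above background were ranked by their Pearson correlation with that average over 14 tumours. The first 10 were Krt5 (0.94), Krt17 (0.93), the prostaglandin transporter gene Slco2a1 (0.91), Krt8 (0.91), the homeobox gene Isl1 (0.89), the airway secretory gene Bpifa1 (0.89), the defensin gene Defb1 (0.89), Wfdc18 (0.89), Nrep (0.89) and Krt18 (0.87). Their Spearman correlations ran from 0.78 to 0.95. Without Hif1a+/+ tumours 3 and 4, the 2 farthest from the median of the average, their Pearson correlations ran from 0.73 to 0.95. These genes were picked out of 7325 for their likeness, so the values are a description. The likeness to keratins was not shared by each of the 10, since the correlation with Krt5 was 0.89 for Dsc2 and 0.50 for Trim29, and that with Trp63 was 0.93 for Dsc2 and 0.33 for Trim29.

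Taken singly, the 10 genes had different nearest genes. Dsc2 went with Parm1 (0.95) and Trp63 (0.93), and Pkp1 with Krt17 (0.97) and Bpifa1 (0.86). Fxyd3 went with Bpifa1 (0.92) and Krt17 (0.91), Spint1 with Slco2a1 (0.90) and Bpifa1 (0.87), and Esrp1 with Slco2a1 (0.91) and the matrix Gla protein gene Mgp (0.88). The nearest genes of Perp were Tagln (0.90) and Fmod (0.84), which are genes of smooth muscle and matrix rather than of epithelium. Lamb3 was nearest to Eif3h (0.89) and Ndufs5 (0.83), Trim29 to Atp5h (0.82) and Rab5c (0.82), Dsg2 to Tnfaip1 (0.90) and Calcb (0.83), and Ehf to the interferon-induced gene Gbp2 (0.88) and to Prcp (0.82).

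Of 38 other listed desmosome and cell junction genes 28 were measured, and 9 had a mean above background. Of these 9, 5 were higher and 4 lower in Hif1a+/- than in Hif1a+/+ tumours, with a median difference of 0.08, and 7 were higher and 2 lower in Hif1aKI/+ than in Hif1a+/+ tumours, with a median of 0.45. Differences of the other 19 are between levels mostly at background. Jup, the plakoglobin that links desmosomal cadherins to the plaque, was the 1 gene of the 28 at an unadjusted p under 0.05 in either comparison. It had 8.37, 8.50, 6.93, 7.29 and 9.90 in Hif1a+/- tumours and 8.13, 7.98, 8.39 and 8.37 in Hif1aKI/+ tumours, against 5.54, 4.86, 4.41, 6.31 and 7.97 in Hif1a+/+ tumours, in the order of their numbers. The Jup difference was 2.38 (SE 0.68, limma's adjusted p = 0.474) in Hif1a+/- and 2.40 (SE 0.72, limma's adjusted p = 0.984) in Hif1aKI/+ against Hif1a+/+ tumours. The Hif1aKI/+ and Hif1a+/+ tumours did not overlap for Jup, but Hif1a+/+ tumour 5, at 7.97, lay next to the lowest Hif1aKI/+ tumour, at 7.98. Dsp, which links desmosomes to keratin, ran from 4.62 to 13.20 and was highest in Hif1a+/+ tumours 1 and 3 (13.20 and 12.86). The connexin gene Gjb2 was highest in Hif1a+/+ tumour 3 (9.08), where Dsg2 was the 1 gene of the 10 above background. Pkp2, the plakophilin of simple epithelia, was above background in 7 tumours, and Epcam in 13.

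Of 16 hemidesmosome and basement membrane genes 15 were measured, 7 of them with a mean above background, of which 2 were higher and 5 lower in Hif1a+/- and 3 higher and 4 lower in Hif1aKI/+ than in Hif1a+/+ tumours. Of 19 genes listed as epithelial regulators 10 were measured, 5 with a mean above background. Of these 5, 4 were higher and 1 lower in Hif1a+/-, and 3 higher and 2 lower in Hif1aKI/+. Among them Trp63 ran from 2.04 to 8.49. The 5 included Elf1, which lay from 10.34 to 12.13 in all tumours and was higher by 0.22 in Hif1a+/- and 0.13 in Hif1aKI/+. Esrp2 and Spint2, the paralogs of Esrp1 and Spint1, were high in every tumour, from 12.15 to 13.33 and from 10.83 to 11.88. Of 10 surface proteases and inhibitors 7 were measured, 3 with a mean above background, of which 1 was higher and 2 lower in Hif1a+/-, and 3 were higher in Hif1aKI/+, than in Hif1a+/+ tumours. The protease gene Tmprss4 and the inhibitor gene Slpi reached 11.64 and 11.11 in Hif1aKI/+ tumour 4, where Spint1 was 5.03. Of 11 FXYD family and ion transport genes 8 were measured, 3 with a mean above background, of which 2 were higher and 1 lower in Hif1a+/-, and 3 were higher in Hif1aKI/+, than in Hif1a+/+ tumours.

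Means of thymic epithelial markers differed in the same direction as those of the 10 genes, higher in Hif1a+/- for 11 and in Hif1aKI/+ for 13 of 15 markers than in Hif1a+/+ tumours. Of the 9 with a mean above background, 8 were higher and 1 lower in Hif1a+/-, and 9 were higher in Hif1aKI/+. The mean level of the 15 measured thymic epithelial markers ran from 4.60 to 6.58 in Hif1a+/- tumours and from 5.36 to 6.93 in Hif1aKI/+ tumours, against 3.21 to 6.22 in Hif1a+/+ tumours. The mean of the 13 measured keratin genes ran from 4.06 to 5.47 and from 4.47 to 5.43 in those groups, against 2.96 to 5.00 in Hif1a+/+ tumours. Krt5, Krt8, Krt14 and Krt18 stood on both of these lists, and 6 of the 13 keratin genes had a mean above background. The part of epithelial content in the differences of the 10 genes was not tested. The autoimmune regulator gene Aire, which marks medullary thymic epithelium, was above background in 5 tumours and reached 7.37 and 7.40 in Hif1aKI/+ tumours 1 and 3. Keratinocyte genes were present in some tumours, with Sprr1a from 2.04 to 8.51 and Krtdap from 2.15 to 8.06, while the terminal cornification genes Lor and Flg lay between 2.03 and 2.13 in every tumour. Over 163 measured genes on 16 lists, which include T cell, B cell, macrophage, endothelial, fibroblast and adipocyte markers, limma called 0 in each of the 3 comparisons. Without adjustment, 9 genes (5.52%) were higher and 15 (9.20%) lower at p under 0.05 in Hif1a+/- against Hif1a+/+, where 4.30% of all genes were higher and 3.64% lower. In Hif1aKI/+ against Hif1a+/+ 12 (7.36%) were higher and 5 (3.07%) lower, beside 2.72% and 1.63% of all genes. In Hif1a+/- against Hif1aKI/+ 2 (1.23%) were higher and 5 (3.07%) lower, beside 1.41% and 1.65% of all genes. Marker lists of other cell types differed in direction, counted over all measured markers, those at background included. Of 12 T cell markers 8 were higher and 4 lower in Hif1a+/- (median difference 0.12), and 10 were higher and 2 lower in Hif1aKI/+ (median 0.11), than in Hif1a+/+ tumours. Of 6 B cell markers 2 were higher and 4 lower in Hif1a+/-, and 4 higher and 2 lower in Hif1aKI/+. For the 3 with a mean above background, 1 was higher and 2 lower in Hif1a+/-, and 2 higher and 1 lower in Hif1aKI/+. Of 11 endothelial markers 4 were higher and 7 lower in Hif1a+/-, and 5 higher and 6 lower in Hif1aKI/+. The 4 endothelial markers with a mean above background split into 2 higher and 2 lower in each of these comparisons. Of 11 fibroblast and matrix markers, 11 were lower in Hif1a+/- and 9 in Hif1aKI/+ than in Hif1a+/+ tumours. Their mean level ran from 8.23 to 9.28 in Hif1a+/- and from 8.78 to 9.64 in Hif1aKI/+, against 9.46 to 10.55 in Hif1a+/+ tumours. Thy1 stood on both the fibroblast and the T cell list and lay from 14.01 to 14.52 in all tumours. Its difference from Hif1a+/+ was -0.04 in Hif1a+/- and 0.10 in Hif1aKI/+. The 6 measured adipocyte markers were lower in both comparisons with Hif1a+/+, with a mean level from 5.31 to 6.66 in Hif1a+/- and from 5.67 to 6.75 in Hif1aKI/+, against 5.55 to 9.54 in Hif1a+/+ tumours. Of 10 macrophage markers 8 were lower in Hif1a+/- and 6 in Hif1aKI/+. The part of these cell types in the differences of the 10 genes was not tested.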

How the data were processed

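Total RNA of 14 thymic lymphomas was measured on 1 Affymetrix array each. The authors deposited 1 log2 value per probe set and array, from GCRMA and Partek per the submitters' processing notes. Versions and the genome build are not given in the sources used here. Raw intensities were not analysed here. GCRMA corrects background by probe sequence, which compresses unexpressed probe sets into a narrow low mode near 2. Of 18264 probe sets, 16602 name 1 gene in the platform annotation and were kept, and the one of highest mean stood for its gene (10254 genes). limma 3.58.1 in R 4.3.3 fitted a mean per genotype to all arrays (lmFit, eBayes, two-sided, Benjamini-Hochberg over all genes, threshold 0.05), without covariates or filter. The procedure was tested on simulated data. The number of arrays limits the precision. The labels call the tumours biological replicates but do not say for each that it came from a separate mouse, so p-values measure the spread between these samples.

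The 10 genes and the lists were chosen with earlier results of these data known. Named besides them are the genes most like their average, the 2 nearest genes of each, and up to 4 genes of largest SD in a discussed list. Aire, Sftpc, Lor, Flg, Cdh1, Jup, Scgb3a2, Krt14, Esrp2, Spint2, Thy1, Elf1 and Msln were named after their values were seen. Alternatives covered normalization, level filter, probe set choice, moderation, array weights, fits of the compared groups alone, the replicate number as a block and leaving out each tumour.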

Additional observations from a re-analysis of the deposited data

Results flagged for a closer look

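In groups of 4 or 5 tumours, a value was singled out when its gap to the nearest other value exceeded Dixon's 95% limit as a share of the group's range. Of 30 groups (10 genes in 3 genotypes) 2 held such a value, where chance gives about 1 in 20. Perp was 7.27 in Hif1a+/- tumour 1, while the other Hif1a+/- tumours lay from 9.45 to 10.33, a gap of 0.7103 of the range against a limit of 0.71. Pkp1 was 2.86 in Hif1a+/+ tumour 1, while the other Hif1a+/+ tumours lay from 1.94 to 2.14, all of them below the background bound of 4.41.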

How the results depend on the processing

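None of the 10 genes passed in any comparison under the 9 alternatives, of which the filter on level left out Fxyd3, Pkp1, Ehf and Trim29, or in the 14 fits without 1 tumour. The number of all genes called in Hif1a+/- against Hif1a+/+ was 2, and it was 0 with quantile normalization, with arrays centred on their medians, with the filter on level, with the probe set of largest variance, with only the compared groups and with the replicate block, and 1 with trend and robust moderation. Without 1 tumour it was 0 to 1. In Hif1aKI/+ against Hif1a+/+ the count without 1 tumour was 0 to 2, and in Hif1a+/- against Hif1aKI/+ it was 0 to 1. The nonzero counts came without Hif1aKI/+ tumour 5 (2) or tumour 3 (1) in the second comparison, and without Hif1aKI/+ tumour 3 or Hif1a+/+ tumour 5 (1 each) in the third. The 30 differences of the 10 genes were refitted 678 times, and each stayed within 1 SD between tumours of its first value. The sign turned 17 times, 16 of them between Hif1a+/- and Hif1aKI/+ and the other for Dsg2 without Hif1a+/+ tumour 5. With probe sets of 1 gene averaged, flat ones included, the Dsc2, Dsg2 and Ehf differences were smaller, at 0.70, 0.62 and 0.24 in Hif1a+/- and at 1.11, 1.54 and 0.31 in Hif1aKI/+ against Hif1a+/+. The median pairwise correlation of the 10 genes was 0.65 by Spearman and 0.62 to 0.73 without 1 tumour. Tumours sharing a replicate number across genotypes were no more alike than others (mean residual correlation -0.0060 over 13 pairs, above 0.1 in 1). Among the 14 tumours, 1 correlated best with its own number. No pairing by replicate number was seen, but a pairing of small effect could go unseen here.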
